A study of Mus musculus with 18 samples.

Results

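Basophil-like cells were examined within the LK fraction of mouse bone marrow, the cells that lack lineage markers and carry the receptor cKit. They were chosen by their UMIs (unique molecular identifiers, 1 per captured RNA molecule): at least 2 of Mcpt8, at least 1 of Ms4a2 or Fcer1a, at least 1 of Cpa3, none of Gzmb, Cma1 or Epx, and fewer than 100 of Igkc. The rule held for 526 of 8436 cells. The study sorted LK cells of female C57BL/6 mice (C57BL/6J in the methods), 3 of 8 weeks (mice 1, 3 and 5, young) and 3 of 72 weeks (mice 2, 4 and 6, aged), and sequenced the 3' ends of the RNA of single cells, with 1 library per mouse. The labels name no transgene and no treatment, and the comparison was made to find what differs with age. A UMI is counted once per RNA molecule, so that levels of different genes can be set side by side without a correction for length.

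Basophils are rare granulocytes that take part in allergy and in defence against parasites, and they arise in the bone marrow from myeloid progenitors. Like mast cells, they bind IgE through a receptor made of an alpha chain (Fcer1a), a beta chain (Ms4a2) and gamma chains (Fcer1g), and release histamine, lipid mediators and IL-4 when it is cross-linked. Mouse basophils are known for the granule serine proteases encoded by Mcpt8 and Prss34, while connective tissue mast cells are known for chymases such as Cma1, and factors of the GATA and C/EBP families take part in the formation of both lineages.

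The 4 markers lie on 4 chromosomes. On GRCm38, the gene of Mcpt8 (ENSMUSG00000022157.8) spans chr14:56082166-56085197 on the minus strand, that of Prss34 (ENSMUSG00000056399.2) chr17:25298394-25300165 on the plus strand, that of Fcer1a (ENSMUSG00000005339.10) chr1:173221284-173227214 on the minus strand, and that of Ms4a2 (ENSMUSG00000024680.12) chr19:11617193-11623659 on the minus strand. Their promoters are shown because the 4 genes mark the same cells: the 250 bases before each RefSeq start on GRCm38.p6, 5' to 3' on the gene's strand, at chr14:56085198-56085447, chr17:25298144-25298393, chr1:173227230-173227479 and chr19:11623720-11623969. Capitals mark AGATAA or TGATAA, words bound by GATA factors, or their reverse complements.
Mcpt8: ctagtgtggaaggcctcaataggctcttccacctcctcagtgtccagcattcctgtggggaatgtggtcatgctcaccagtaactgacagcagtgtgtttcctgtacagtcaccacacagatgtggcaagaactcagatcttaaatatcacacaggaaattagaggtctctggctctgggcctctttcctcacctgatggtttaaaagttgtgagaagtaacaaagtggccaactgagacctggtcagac
Prss34: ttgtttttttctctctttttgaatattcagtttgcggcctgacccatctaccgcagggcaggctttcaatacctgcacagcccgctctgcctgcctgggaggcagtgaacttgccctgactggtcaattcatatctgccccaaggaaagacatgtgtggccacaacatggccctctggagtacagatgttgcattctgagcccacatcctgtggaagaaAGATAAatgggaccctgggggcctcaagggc
Fcer1a: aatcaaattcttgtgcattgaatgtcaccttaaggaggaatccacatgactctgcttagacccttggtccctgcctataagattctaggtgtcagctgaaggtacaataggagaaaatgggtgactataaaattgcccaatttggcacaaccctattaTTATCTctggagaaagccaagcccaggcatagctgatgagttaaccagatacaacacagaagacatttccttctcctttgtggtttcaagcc
Ms4a2: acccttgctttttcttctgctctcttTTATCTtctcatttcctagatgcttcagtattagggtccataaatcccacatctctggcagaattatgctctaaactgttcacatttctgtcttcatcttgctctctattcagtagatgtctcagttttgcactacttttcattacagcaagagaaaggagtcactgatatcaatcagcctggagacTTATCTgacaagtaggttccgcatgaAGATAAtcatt
Prss34 held 1 such word, 31 bases before its start, Fcer1a held 1 at 92 bases, Ms4a2 held 3 at 224, 37 and 11 bases, and Mcpt8 held none. In the window of Cpa3, not printed, the word began 46 bases before the start. Both strands were searched, and none of these words overlapped a match to the other 3 motifs searched (TGTGGT for RUNX, TTGCNNAA for C/EBP and TTCNNNGAA for STAT5). A window of this length held a GATA word in 17.0% of 27025 genes, a RUNX word in 14.2%, a C/EBP word in 9.53% and a STAT5 word in 7.11%. Of the 20 genes with the highest ratios of basophil-like over other LK cells, 18 had a RefSeq promoter, and 6, 3, 3 and 1 of these held the respective motif. These are matches of letters and were not compared with binding.

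The order of the conditions showed where cells were lost. Of 1378 cells with 2 or more Mcpt8 UMIs, 650 also had a UMI of Ms4a2 or Fcer1a, 606 of these had one of Cpa3, 527 had none of Gzmb, Cma1 and Epx, and 1 more was left out for its Igkc UMIs. Ms4a2 was seen in 504 of the 526 cells, Fcer1a in 395 and both in 373. Prss34, a marker that the rule did not read, was seen in 448 (85.2%).

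Mcpt8 ran from 2 to 615 UMIs per cell. Just inside the threshold lay 44 cells with 2 UMIs, and just outside lay 100 cells with 1 UMI that met the rest of the rule. Summed over cells, Prss34 stood at 279 UMIs per 1000000 (CPM) inside and 306 CPM outside. The summed level thus did not step up at the threshold, but the share of cells with a Prss34 UMI did. Such a UMI was seen in 25 of the 44 cells inside and in 29 of the 100 outside. The summed Prss34 level was 706 CPM in the 114 cells with 3 to 9 Mcpt8 UMIs. It was 4015 CPM in the 84 with 10 to 29 and 36722 CPM in the 284 with 30 or more. Elane, the neutrophil elastase of granulocyte progenitors, went the other way over the same steps, at 3458 CPM in cells with 2 Mcpt8 UMIs, 1753 CPM, 834 CPM and 600 CPM. The cells with 2 Mcpt8 UMIs thus held more Elane than any step above. They held no UMI of Cd200r3, a receptor of mouse basophils and mast cells, so the label holds best for cells with many Mcpt8 UMIs. Below the threshold Elane was lower again, at 1829 CPM in cells with 1 Mcpt8 UMI and 945 CPM in those with none. The steps pool cells over mice, and mice 1 and 2 gave 133 and 85 of the 284 cells with 30 or more.

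The 6 libraries differed in how much Mcpt8 their cells held. Median Mcpt8 was 57 UMIs per cell in young mouse 1, 11 in mouse 3 and 17.5 in mouse 5, against 106, 10 and 15 in aged mice 2, 4 and 6. Median Prss34 was 127.5, 8 and 18 UMIs in the young mice and 87, 1 and 16 in the aged mice. Mice 1 and 2, 1 of each age, stood above the other 4 for both proteases, and the ages overlapped. The share of basophil-like cells with 30 or more Mcpt8 UMIs was 67.2%, 13.8% and 43.9% in mice 1, 3 and 5 and 63.0%, 30.2% and 36.8% in mice 2, 4 and 6.

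**Figure D1:**
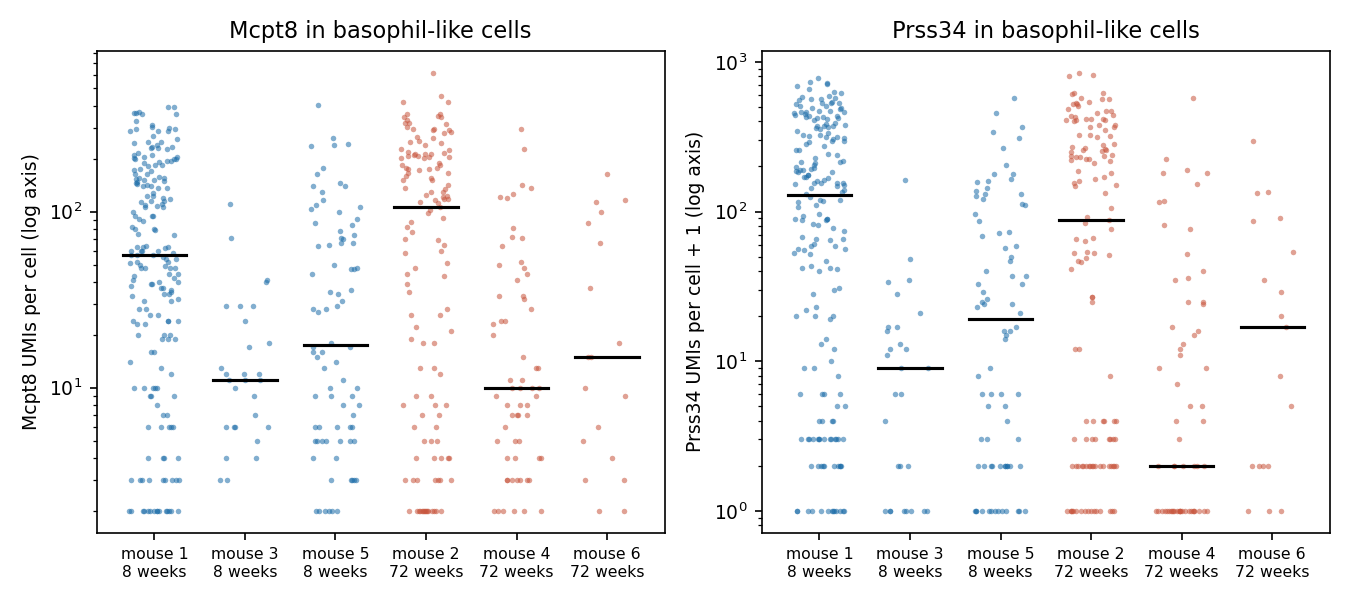
UMIs of Mcpt8 (left) and of Prss34 plus 1 (right) in each of the 526 basophil-like cells, on log axes, by mouse. Each point is a cell, bars mark medians, blue is 8 weeks and red 72 weeks. Mice 1 and 2 hold the highest medians of both genes, 57 and 106 UMIs for Mcpt8.

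Mice 1 and 2 stood apart in the protease UMIs of erythroid cells as well. Erythroid cells (at least 2 Klf1 and 5 Car1 UMIs, 45 to 182 per mouse, median depth 9963 to 18082 UMIs), which should lack both proteases, had 2 or more Mcpt8 UMIs in 10.2% and 17.5% of cells in mice 1 and 2, and in 3.13% in mouse 5. None was seen in mice 3, 4 and 6, which at 92, 182 and 45 cells allows shares of up to 3.26%, 1.65% and 6.67%. A Prss34 UMI was seen in 59.3% and 50% of them in mice 1 and 2 and in 3.26%, 4.95%, 12.5% and 13.3% in mice 3 to 6. Low counts of Mcpt8 or Prss34 in mice 1 and 2 do not by themselves set basophil-like cells apart, but none of the erythroid cells met the whole rule. Whether the UMIs in erythroid cells came from free RNA or from doublets was not tested. Immediate early genes, which are induced by handling of cells, were lowest in the same mice, at a summed 1506 and 740 CPM in basophil-like cells of mice 1 and 2 against 2551 to 6267 CPM in the others. The part of these differences in the results was not tested. The share of basophil-like cells and the tests of age within them were also run without mice 1 and 2, and the interaction with age only without each mouse in turn. Igkc, an immunoglobulin light chain of B-lineage cells, was seen in 73.2%, none (up to 10.3% of 29 cells) and 12.2% of basophil-like cells of the young mice and 100%, 79.4% and 36.8% of the aged mice. Libraries held 3628043 to 17585424 UMIs in all and 121933 to 1274929 in basophil-like cells. Of 8436 cells, 84 shared a barcode with a cell of another library, and none of these pairs was of basophil-like cells.

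Levels per mouse were taken by summing the UMIs of its basophil-like cells. The rule chose the cells from these counts, so that the comparison with the other LK cells of the same mice is a description: 645 of 5235 genes (12.3%) stood higher in the basophil-like cells in 6 of 6 mice and 1064 (20.3%) lower. The 20 genes with the highest ratios, among those with at least 50 CPM and higher in 6 of 6 mice, were Prss34, Mcpt8, Cd200r3, Fcer1a, Cyp11a1, Rnase12, Ms4a2, Alox5, Csf1, Rom1, Csrp3, Cpa3, Gm11697, Fam129a, Padi2, Fgf3, Parvb, Lmo4, Atp6v0a1 and Hdc.

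Among the proteases, Prss34 stood at 30129, 3190 and 9331 CPM in mice 1, 3 and 5 and at 23579, 3701 and 7389 CPM in mice 2, 4 and 6, against a mean of 139 CPM in the other LK cells (93.0 times). Mcpt8, which chose the cells, stood at 15267, 4007 and 7586 CPM in the young mice and 16043, 3562 and 6356 CPM in the aged mice. Cpa3, carboxypeptidase A3 of mast cell and basophil granules, varied less between mice, from 1451 to 2776 CPM. The highest mouse held 9.45 times the lowest for Prss34, 4.50 times for Mcpt8 and 1.91 times for Cpa3, and the ages overlapped for all 3. Cathepsin G (Ctsg), a granule protease shared with neutrophil progenitors, stood at 3167 ± 1007 CPM (SD, n = 6 mice), 1.63 times the other LK cells and higher in 6 of 6 mice. Its neighbours in neutrophil granules did not follow: Elane stood at 991 ± 543 CPM (0.315 times, lower in 6 of 6) and proteinase 3 (Prtn3) at 841 ± 182 CPM (0.488 times, lower in 6 of 6). Myeloperoxidase (Mpo) stood at 3163 ± 1260 CPM, 0.964 times the other cells and higher in 2 of 6 mice.

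Of the IgE receptor, the beta chain gene Ms4a2 was steady between mice, at 807, 566 and 927 CPM in the young and 740, 671 and 714 CPM in the aged, against 33.7 CPM in the other LK cells. The alpha chain gene Fcer1a was not, at 883, 222 and 569 CPM in the young and 1936, 974 and 1222 CPM in the aged. The gamma chain gene Fcer1g, which other myeloid receptors also use, stood at 743 ± 215 CPM, 3.48 times the other cells. Of 20 genes of the receptor and its signalling, 6 were higher and 3 lower in 6 of 6 mice. The kinase genes Lyn (23.0 CPM) and Syk (15.3 CPM), whose products act directly below the receptor, stood at 1.00 and 0.706 times the other cells.

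Genes of mediators were led by the tetraspanin of granule membranes Cd63, at 2448 ± 545 CPM (5.10 times), and the granule proteoglycan serglycin (Srgn), at 3556 ± 464 CPM (2.60 times). Hdc, which makes histamine, stood at 460, 373 and 361 CPM in the young and 413, 298 and 312 CPM in the aged mice, 5.90 times the other LK cells. Of 16 genes of histamine, granules and secretion, 10 were higher in 6 of 6 mice and none lower. In eicosanoid synthesis, 5-lipoxygenase (Alox5) stood at 143 ± 45.9 CPM, 21.0 times the other cells, and its activating protein Alox5ap at 2.38 times. Leukotriene C4 synthase (Ltc4s) was not among the higher genes, at 9.61 ± 8.38 CPM and 0.855 times. Of 10 genes of eicosanoid synthesis, 3 were higher and 2 lower in 6 of 6 mice. Il4 was seen in 53 of the 526 cells (10.1%) and Il6 in 54 (10.3%), and Csf1, the growth factor of macrophages, stood at 50.6 ± 22.8 CPM, 19.4 times the other cells. Cyp11a1, the enzyme of the first step of steroid synthesis, stood at 160 ± 59.0 CPM (35.01 times) and Rnase12, of the ribonuclease A family, at 391 ± 78.0 CPM (29.9 times).

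Of the transcription factors, Lmo4, a LIM-only cofactor, stood highest at 1071 ± 278 CPM (7.57 times), ahead of Gata2 at 354 ± 86.6 CPM (4.91 times) and Ikzf2 at 199 ± 69.4 CPM (4.56 times). Myb came next by level in this list. Cebpa, a factor of granulocyte formation, stood at 155 ± 45.3 CPM (3.34 times). Gata1 differed little, at 54.6 ± 12.6 CPM and 1.25 times. Mitf, a mast cell factor, was seen in 2 of the 526 cells. Of 33 transcription factor genes, 8 were higher and 8 lower in 6 of 6 mice. Some receptors of basophil growth factors were higher in 6 of 6 mice. Il3ra, the IL-3 receptor chain, stood at 3.55 times the other cells and Crlf2, of the TSLP receptor, at 1.77 times. Csf2rb, the beta chain shared by the receptors of IL-3, IL-5 and GM-CSF, stood at 4.07 times. Of 23 cytokine and lipid receptor genes, 8 were higher and 4 lower in 6 of 6 mice, and Il5ra was at 0.

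**Figure D2:**
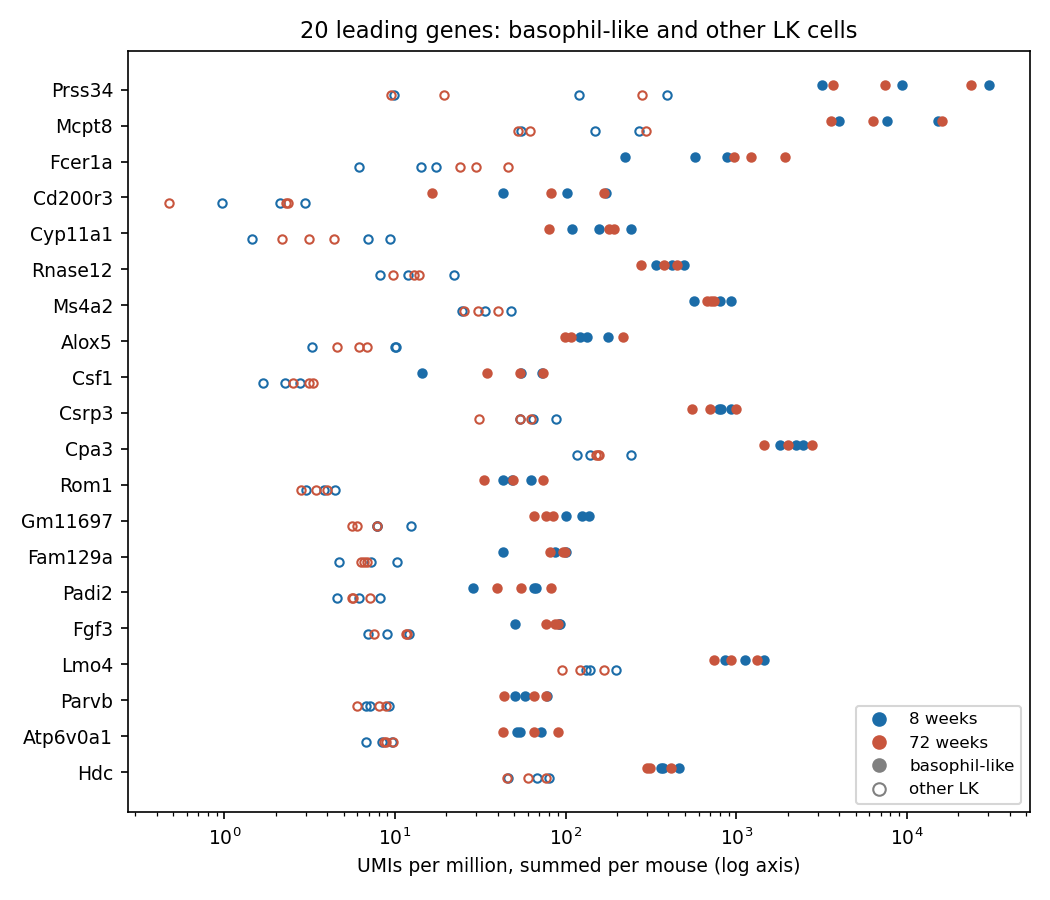
Levels in CPM (log axis) of the 20 leading genes, summed per mouse over basophil-like cells (filled) and over the other LK cells (open), blue for 8 weeks and red for 72 weeks. Prss34 ranges from 3190 to 30129 CPM in the basophil-like cells of the 6 mice, and every filled point lies above the open point of the same mouse.

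Markers of other cells were checked as whole lists. All 13 erythroid markers were lower in 6 of 6 mice, with a sum of 234 to 537 CPM per mouse against 1300 to 2259 CPM in the other LK cells. Monocyte markers summed to 208 to 281 CPM (6 of 8 lower in 6 of 6) and megakaryocyte markers to 24.8 to 122 CPM (6 of 8 in the table lower). Neutrophil and granulocyte markers were not low, at 6214 to 14148 CPM against 6471 to 16903 CPM in the other LK cells. Of these 14, 2 were higher and 4 lower in 6 of 6 mice. Of 9 stem cell markers 4 were lower in 6 of 6 mice, of 6 lymphoid progenitor markers 2, and none of either list was higher. Of the 9 eosinophil markers in the table, 6 were at 0 (Epx by the rule, and Il5ra, Ear1, Ear2, Ear6 and Ccr3), and of 8 mast cell markers only Gzmb and Cma1 were at 0, both by the rule. Mast cell markers summed to 71.7 to 146 CPM against 44.3 to 202 CPM in the other LK cells, and 3 of them (Itgb7, Slc45a3 and Scin) were higher in 6 of 6 mice. T and NK cell markers summed to 710 to 1435 CPM against 417 to 791 CPM, nearly all of it Nkg7, a protein of cytotoxic granules, at 1139 ± 257 CPM and higher in 6 of 6 mice, with Cd3g and Ncr1 at 0. Of 10 B-cell and plasma-cell markers, Cd79a, Ms4a1, Ebf1 and Cd22 were at 0, but the list was not empty. It summed to 28.7 to 259 CPM per mouse, highest in mouse 2, and was led by Jchain and Cd79b. Only 1 of the 10 was lower than in the other LK cells in 6 of 6 mice. Kit, the receptor on which the cells were sorted, stood at 28.4 ± 14.8 CPM against 48.5 CPM in the other LK cells, lower in 6 of 6 mice, with a UMI in 19.0% of basophil-like cells. Cd34, a progenitor marker, was seen in 51.9%, and Itga2, which encodes the CD49b of mature basophils, in 2 cells.

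The 104 LK cells of a mast gate (a UMI of Gzmb, of Cma1 or Scin and of Cpa3, with none of Epx) were set beside them. Basophil-like cells stood higher in 6 of 6 mice for Mcpt8, Prss34, Fcer1a, Hdc, Cebpa and Rnase12, the last at 391 CPM against 40.1 CPM. They stood lower in 6 of 6 mice for Fcer1g (743 against 1414 CPM), Gata2 (354 against 630 CPM) and Lmo4 (1071 against 2668 CPM). Cpa3, Cyp11a1 and Alox5 did not separate the 2 groups, being higher in the basophil-like cells in 2 of 6 mice each. Against 54 cells of an eosinophil gate, Hdc was lower in the basophil-like cells in 6 of 6 mice, at 369 against 502 CPM. These gates hold 1 to 42 cells per mouse and read Gzmb, Cma1, Scin, Cpa3, Epx or Prg2 themselves. The rule of the basophil-like cells reads Mcpt8, Fcer1a and Cpa3, so that it bears on the levels of these genes here.

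To see how the basophil-like cells varied among themselves, those of each mouse were ranked by Mcpt8 per 10000 UMIs and split into 4 bins of equal size, with 134, 133, 131 and 128 cells over all mice (4 to 8 cells per bin in mice 3 and 6). Mcpt8 chose the order, so that this too is a description, and the percentages of all 5385 genes with at least 60 UMIs are 3.75% above and 5.33% below in the top bin in 6 of 6 mice. Of 15 basophil markers, 10 were above and none below in 6 of 6. Mcpt8 set the order and the rule reads Fcer1a, Ms4a2 and Cpa3, and of the other 11 markers 7 were above. Prss34 went from 1469, 380 and 1223 CPM in the bottom bin to 81242, 7428 and 38321 CPM in the top bin of mice 1, 3 and 5, and from 340, 33.0 and 1537 CPM to 74857, 14468 and 34569 CPM in mice 2, 4 and 6. Prss34 thus followed the order of Mcpt8 in every mouse, with a rank correlation over cells of 0.637 to 0.913 per mouse (19 to 198 cells, which share library and depth).

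Genes of the receptor and the granule are given first, though others were steeper. Mean levels went from 313 to 2272 CPM for Fcer1a, 366 to 1584 CPM for Fcer1g, 1220 to 3851 CPM for Cpa3 and 240 to 529 CPM for Hdc, each higher in the top bin in 6 of 6 mice. Ms4a2 went from 569 ± 195 CPM to 834 ± 339 CPM and was higher in the top bin in 4 of 6 mice. The rule asks for Ms4a2 or Fcer1a, and of the cells with 2 Mcpt8 UMIs 88.6% had Ms4a2 and 54.5% Fcer1a, so that the rule bears on the levels of both in the bottom bin. Cyp11a1 went from 39.6 to 342 CPM, Cd63 from 1566 to 3598 CPM, Alox5ap from 423 to 1000 CPM and Csf1 from 24.5 to 77.4 CPM, all in 6 of 6 mice. Over all cells of a mouse, rank correlations with Mcpt8 were less uniform than these bins. They were 0.314 to 0.754 for Fcer1a, 0.0808 to 0.778 for Cpa3 and -0.0929 to 0.651 for Cyp11a1, each lowest in mouse 3. For Ms4a2 they were -0.321 to 0.468. Alox15, a lipoxygenase known from eosinophils and counted here with their markers, went from 2.12 ± 4.10 CPM to 101 ± 90.0 CPM in 6 of 6 mice. Ccl3, a chemokine of activated myeloid cells, went from 17.9 to 158 CPM.

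Granulocyte progenitor genes split along the same order. Elane was lower in the top bin in 6 of 6 mice, with 1790 ± 1419 CPM in the bottom and 313 ± 193 CPM in the top bin, and so was Prtn3, with 1238 ± 532 CPM and 402 ± 120 CPM. Ctsg went the opposite way, from 2081 ± 787 CPM to 4633 ± 1456 CPM in 6 of 6 mice. Over all cells of a mouse, the rank correlation of Elane with Mcpt8 was weaker than the bins show, at -0.421 to 0.107. It was above 0 in mouse 3 and -0.0851 in mouse 4. Mpo showed no order, at 3186 ± 1969 CPM and 2826 ± 1076 CPM. Gata2 went from 269 ± 73.0 to 481 ± 199 CPM (4 of 6 mice), and Lmo4 was level at 1007 ± 443 and 1081 ± 386 CPM. Kit went from 44.7 to 11.6 CPM, lower in the top bin in 6 of 6 mice. Of 31 genes of G2 and mitosis, 1 was below and none above in 6 of 6, with a sum of 3924 ± 1169 CPM in the bottom and 2585 ± 1272 CPM in the top bin, and of 25 S phase genes 4 were below and none above.

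Of 85 cytosolic ribosomal protein genes, 42 were below and none above in the top bin in 6 of 6 mice. Mcpt8 and Prss34 together took 1.65% to 12.4% of the UMIs of the top bin, which lowers the share of every other gene there. With both taken out of the totals, a setting chosen after the values were seen, 27 of the 85 genes were below and none above in 6 of 6 (4.44% of all genes were above and 3.98% below). The ribosomal share was then 37.5 ± 3.60% in the bottom and 33.7 ± 5.96% in the top bin and lower in the top bin in 6 of 6 mice. Of 10 heat shock genes, 3 were below and none above. One of these, Hsp90ab1, the cytosolic chaperone, went from 1977 ± 327 to 1235 ± 337 CPM in 6 of 6 mice. Median depth per cell was 4928 to 10832 UMIs over mice in the bottom bin and 4368 to 7460 in the top bin.

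**Figure D3:**
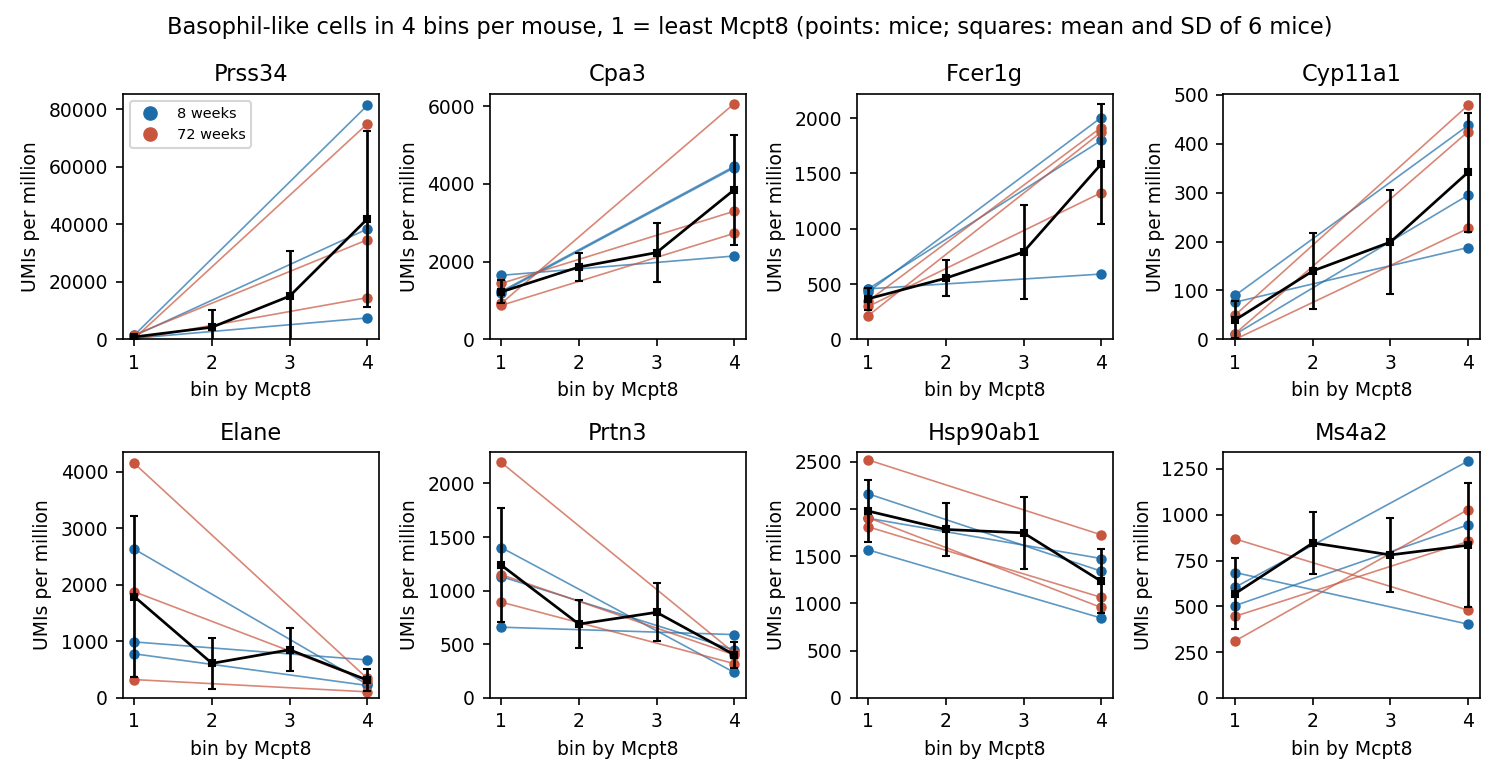
Levels in CPM of 8 genes in bins of the basophil-like cells of each mouse, from least (1) to most (4) Mcpt8. Coloured points and lines are the bottom and top bins of single mice (blue 8 weeks, red 72 weeks), and black squares with bars are the mean and SD over 6 mice. Prss34, Cpa3, Fcer1g and Cyp11a1 are higher, and Elane, Prtn3 and Hsp90ab1 lower, in the top bin of all 6 mice, while Ms4a2 is higher in 4.

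The first comparison with age was that of numbers. Basophil-like cells made up 11.9%, 1.89% and 8.58% of LK cells in mice 1, 3 and 5 and 8.00%, 3.28% and 2.79% in mice 2, 4 and 6. The 95% Wilson intervals, which cover counting error only, were 10.5% to 13.6%, 1.32% to 2.70% and 6.96% to 10.5% in the young and 6.80% to 9.39%, 2.57% to 4.18% and 1.79% to 4.32% in the aged mice. The lowest share was in a young mouse, and mice of 1 age differed by more than the counting error. The mean was 7.47 ± 5.11% in young and 4.69 ± 2.87% in aged mice (SD, n = 3 each), a difference of -2.78 percentage points (two-sided exact permutation test p = 0.6, where 0.1 is the smallest p that 3 against 3 allow). Without mice 1 and 2 it was -2.20 points, with an exact p of 1.0. These are shares of sorted cells, so that the gates of the sort bear on them.

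**Figure D4:**
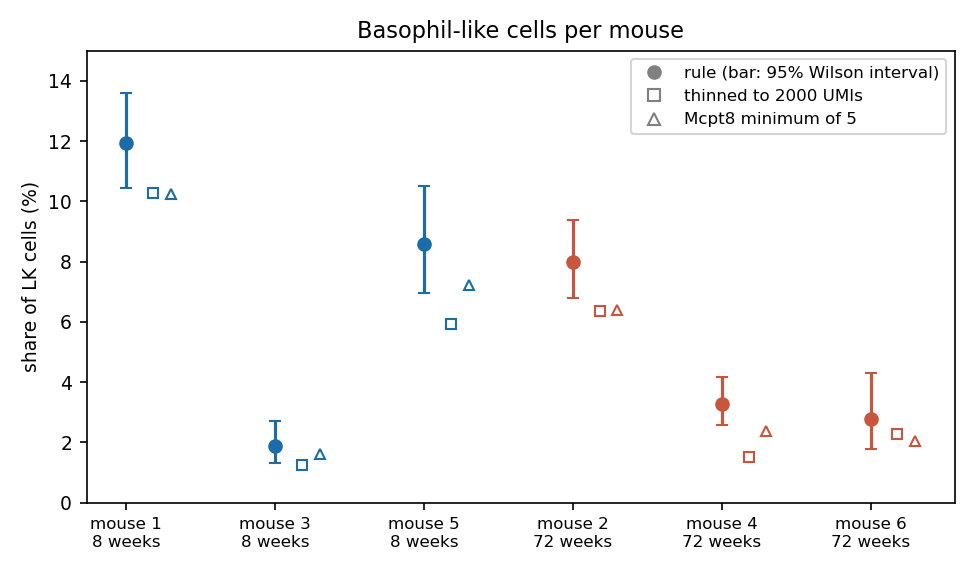
Share of basophil-like cells among LK cells (%), per mouse, as chosen by the rule (circles, with 95% Wilson intervals), after thinning cells to 2000 UMIs (squares) and with at least 5 Mcpt8 UMIs (triangles). Blue is 8 weeks and red 72 weeks. Young mice run from 1.89% to 11.9% and aged mice from 2.79% to 8.00%.

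Depth per cell, which sets what the rule can see, differed as well. Median UMIs per basophil-like cell were 5889, 4261 and 6168 in mice 1, 3 and 5 and 7600, 9581 and 5847 in mice 2, 4 and 6, a difference of 2237 between the means (exact permutation p = 0.3). The ages overlapped.

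Between 8 and 72 weeks, no gene of the basophil-like cells passed edgeR's quasi-likelihood test at a Benjamini-Hochberg adjusted p under 0.05, that is 0 of 5235 (0.0%), with a lowest adjusted p of 0.999. An unadjusted p under 0.05 was reached by 114 genes (2.18%), and DESeq2 also called 0, with 16 at an unadjusted p under 0.05. The ages did not overlap for 245 genes (4.68%) that stood higher in all aged mice and 132 (2.52%) that stood lower, and 51.1% of genes had a fold change above 0 (median 0.01 on the log2 scale). No gene was thus shown to differ between the ages beyond the spread between the 3 mice of each age.

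The genes with the smallest p in each direction are given as not passing. They were taken from genes outside the rule with a mean of at least 50 CPM and no overlap of ages, so that the lack of overlap was set by the choice. H2-Q7, a class Ib MHC gene, stood at 104, 108 and 101 CPM in the young and 154, 172 and 221 CPM in the aged mice (log2 fold change 0.73, standard error 0.21). Apobec3, a cytidine deaminase that restricts retroviruses, stood at 144, 71.7 and 127 CPM and 200, 171 and 230 CPM (0.64, standard error 0.22). Gnl3, nucleostemin, stood at 80.8, 57.3 and 82.5 CPM and 124, 128 and 115 CPM (0.64, standard error 0.20). Gm42418, Scaf11, Ybx3, Eprs, Gar1, Prrc2c and Pdcd5 were chosen in the same way, with log2 fold changes of 0.61 to 0.94. In the other direction Lgals1, the gene of galectin-1, stood at 2528, 1892 and 2041 CPM in the young and 1471, 1413 and 1862 CPM in the aged mice (-0.49, standard error 0.20), and Rab44, a Rab GTPase of granulocytes and mast cells, at 156, 143 and 172 CPM and 127, 124 and 131 CPM (-0.37, standard error 0.18). Sap18, Gnb1, Gm11697, Zc3h15, Fam107b, Cd37, Ms4a6c and Acyp1 lay between -0.86 and -0.42. edgeR's quasi-likelihood test gave each of these 20 genes an adjusted p of 0.999.

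By function, no list held a called gene. The shift with the highest median was that of immunoglobulin chains, at 2.32 on the log2 scale. All 3 genes tested had a fold change above 0 and an unadjusted p under 0.05 by edgeR's quasi-likelihood test. The count and the median include Igkc, which the rule limits, and nothing is drawn from its test. The whole list summed to 333, 7.17 and 72.2 CPM in the young and 3060, 235 and 115 CPM in the aged mice, with overlap. Of the basophil markers tested, 2 of 15 (4 of them read by the rule) had a fold change above 0, with a median of -0.26, and Prss34 gave -0.34 with a standard error of 0.67. Of 25 S phase genes, 22 had a fold change above 0 (median 0.19), and of 29 genes of G2 and mitosis 23 did (median 0.25), against 51.1% of all genes. Mki67 stood at 54.9, 14.3 and 67.1 CPM in the young and 101, 69.6 and 41.0 CPM in the aged mice (0.54, standard error 0.31, with an adjusted p of 0.999 by edgeR's quasi-likelihood test). In summed levels, S phase genes stood at 2654 ± 586 CPM in the young and 3016 ± 547 CPM in the aged mice (exact permutation p = 0.5), and G2 and mitosis genes at 3168 ± 485 and 3589 ± 799 CPM (exact permutation p = 0.5). The share of basophil-like cells with at least 2 UMIs of G2 and mitosis genes, after thinning to 2000 UMIs (1 cell of mouse 2 was too shallow), was 83.8%, 72.4% and 85.4% in mice 1, 3 and 5 and 91.0%, 84.1% and 63.2% in mice 2, 4 and 6 (exact permutation p = 0.9), beside 76.7% to 88.0% in the other LK cells. At full depth the shares were 93.1% to 100%. The list holds abundant genes such as Hmgb2, so that nearly every cell reaches the minimum and the share says little of cycling.

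Fcer1a stood higher in every aged mouse than in any young mouse, but the rule reads Fcer1a. It was in the fit of all genes, where nothing is drawn from its test. After these values were seen, gates that do not read it were added. In the 504 cells with the Mcpt8, Cpa3 and other conditions and a UMI of Ms4a2, Fcer1a stood at 915, 207 and 569 CPM in mice 1, 3 and 5 and at 2090, 996 and 1241 CPM in mice 2, 4 and 6. The means were 564 ± 354 and 1442 ± 574 CPM, 2.56 times as high in the aged mice, without overlap, and all 504 cells are basophil-like cells of the first rule. edgeR's quasi-likelihood test across 5296 genes gave a log2 fold change of 1.27 with a standard error of 0.36 and an adjusted p of 1.00, so that the difference did not pass. With a term for mice 1 and 2 it passed (1.26, adjusted p = 0.0200), without both mice it gave 0.0519, and without any 1 mouse or with DESeq2 0.266 to 1.00.

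In 301 cells outside the basophil-like cells, with Ms4a2 and Cpa3 but fewer than 2 Mcpt8 UMIs, Fcer1a stood at 156, 75.8 and 90.7 CPM in the young and 425, 266 and 350 CPM in the aged mice. All 3 aged mice again stood above all 3 young mice, with means of 107 ± 42.4 and 347 ± 79.6 CPM, 3.23 times as high. The log2 fold change was 1.59 with a standard error of 0.25 and an adjusted p of 0.113 by edgeR's quasi-likelihood test across 3912 genes, which did not pass. It passed with a term for mice 1 and 2 (adjusted p = 0.000402), without both (0.0450), without young mouse 1 (0.0279) and with DESeq2 (0.00231), and gave 0.111 to 0.999 by edgeR's quasi-likelihood test without any 1 of the other mice. With no condition on either receptor gene (775 cells) the ages overlapped, at 617, 96.6 and 424 CPM in the young and 1219, 390 and 920 CPM in the aged mice. They overlapped in the mast gate too, at 632, 157 and 96.2 CPM and 1653, 624 and 586 CPM.

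The share of cells with a Fcer1a UMI at a matched depth of 2000 UMIs was 59.8%, 19.2% and 40.2% in young and 82.7%, 67.2% and 77.8% in aged mice among the 504 cells, and 18.4%, 9.62% and 10.9% against 46.5%, 28.2% and 52.0% among the 301 (exact permutation p = 0.1 for each, the smallest that 3 against 3 allow). At full depth it was 71.4%, 34.6% and 53.7% against 88.3%, 90.2% and 94.4%, and 32.7%, 15.4% and 23.9% against 54.5%, 50.6% and 60%. Erythroid cells, which should lack the gene, held 2.68, 0 and 0 CPM of Fcer1a in mice 1, 3 and 5 and 9.15, 0.958 and 6.21 CPM in mice 2, 4 and 6 (0 to 9 UMIs per mouse). Their mean was also higher in the aged mice, at 5.44 ± 4.15 CPM against 0.893 ± 1.55 CPM with overlap, and the part of free RNA in the age difference was not tested. The other chains showed no such split: Fcer1g stood at 798 ± 303 CPM in the young and 731 ± 161 CPM in the aged mice among the 504 cells, and Ms4a2, which that gate reads, at 794 ± 167 and 751 ± 53.7 CPM, both with overlap.

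**Figure D5:**
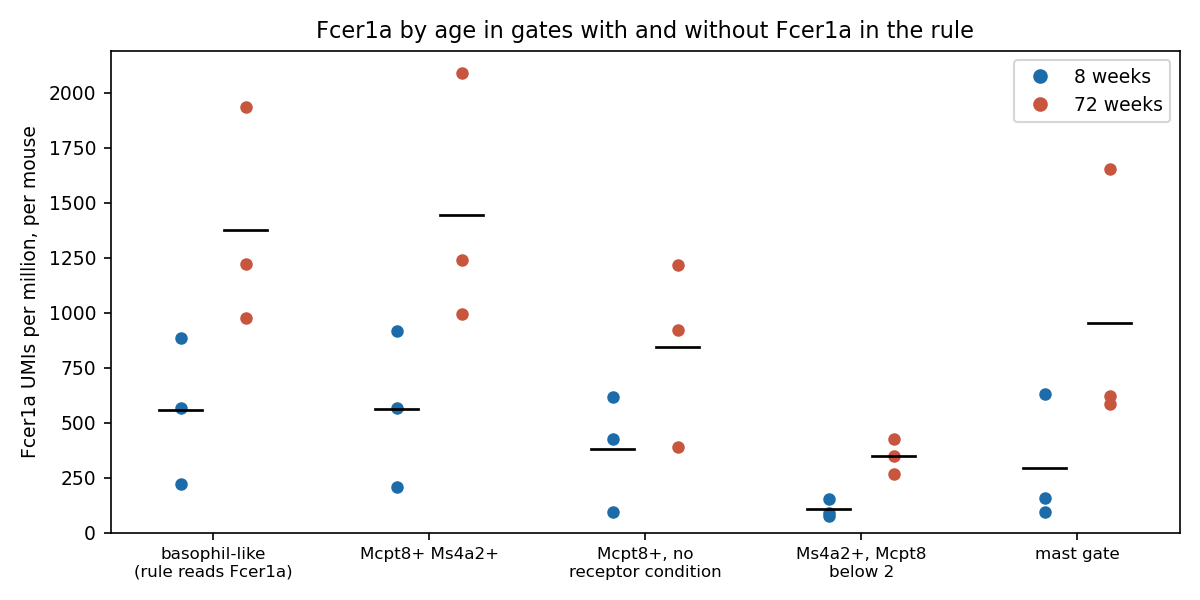
Fcer1a in CPM per mouse (points; blue 8 weeks, red 72 weeks; bars are means of 3 mice) in the basophil-like cells and in 4 gates that do not read Fcer1a. The ages do not overlap in the basophil-like cells, in Mcpt8+ Ms4a2+ cells and in Ms4a2+ cells with Mcpt8 below 2, and overlap in the other 2 gates.

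Whether age changes differed between the basophil-like cells and the other LK cells of the same mice was tested as an interaction with the mouse as a block. edgeR's quasi-likelihood test called 10 of 10084 genes (0.0992%), and 449 had an unadjusted p under 0.05. Of the 10, 2 had a positive difference. For Prss34 the log2 age change in basophil-like cells exceeded that in the other LK cells by 0.84 with a standard error of 0.12. It was 0.36 to 1.86 without any 1 mouse, and did not pass without mouse 1 (0.58, adjusted p = 0.579 by edgeR's quasi-likelihood test) or mouse 4 (0.36, adjusted p = 1.00). The other LK cells held 392, 9.86 and 120 CPM in the young and 281, 9.48 and 19.4 CPM in the aged mice. Mice 1 and 2 were the highest in the other LK cells, as in the erythroid cells given above, and the part of free RNA in this difference was not tested. For Hist1h2ap, a histone gene, the difference was 0.83 with a standard error of 0.15, and it did not pass without mouse 2 (0.72) or mouse 4 (0.69). The other 8 differences were negative, for Cd74, H2-Aa, H2-Eb1 and H2-Ab1 of antigen presentation, Pf4 of megakaryocytes, Car1 and Rhd of erythroid cells and Derl3 of the endoplasmic reticulum. In the basophil-like cells Cd74 stood at 105, 0 and 0 CPM in the young and 17.9, 1.66 and 0 CPM in the aged mice, and H2-Aa at 51.8, 0 and 1.72 CPM and 11.3, 3.31 and 0 CPM. Mouse 1 was thus the highest for both. The macrophage and dendritic cell markers, a list that holds Cd74 and these H2 genes, summed to 14.3 to 326 CPM in the basophil-like cells. In the other LK cells they summed to 48.3 to 1679 CPM, so that the differences also rest on those cells. Without mouse 1 the test called 4 genes, 1 of them among the 10, without mouse 2 it called 4 (3 among the 10) and without mouse 6 it called 18 (9 among the 10).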

How the data were processed

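The deposited short-read table gives counts of UMIs, 17757 genes by 8436 cells. The submitters' processing notes name Cell Ranger 3.0.2 and Seurat 3, and the authors removed cells under 1000 genes or above 5% mitochondrial counts. The values are not normalized. The number at the end of a cell's name was read as the mouse number of the labels. The deposited annotation on GRCm38 gave gene positions only, and promoters and their sequences came from RefSeq on GRCm38.p6. The deposited long-read counts are per gene and run, with no cell, and were not used here.

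The tools were DESeq2 1.42.0, limma 3.58.1 and edgeR 4.0.16 in R 4.3.3, and pandas 2.3.3, scipy 1.17.1 and numpy 2.4.6 in Python 3.11.15. UMIs of the basophil-like cells were summed per mouse, since cells are not replicates. Levels are UMIs per 1000000 of that sum (CPM). After filterByExpr and TMM normalization, edgeR's quasi-likelihood test set aged against young mice, and a Benjamini-Hochberg adjusted p under 0.05 over all genes tested was called. The interaction fit held 2 sums per mouse and the mouse as a block. For shares and sums, the mice were permuted exactly (two-sided). Scripts were tested on simulated data.

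Doublets were not called. Cells with Gzmb, Cma1, Epx or 100 Igkc UMIs were left out by the rule, and the cells above the 95th percentile of UMIs of their mouse were left out as an alternative. Other alternatives were cells thinned to 2000 or 4000 UMIs (seed 42), an Mcpt8 minimum of 1 or 5, no minimum of Cpa3, no limit on Gzmb, Cma1 and Epx, DESeq2, RLE size factors, no filter on low counts, immunoglobulin genes left out, a term for mice 1 and 2 or both left out, and each mouse left out in turn. The Fcer1a-free gates were added after the values of Fcer1a were seen.

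The rule of the cells, the gene lists and the tests were chosen with earlier results of these data known. Named are the 8 genes of the rule, the 20 leading genes, up to 4 genes per list by level, and for age the called genes or, where there were none, up to 10 genes per direction with the smallest p, a mean of at least 50 CPM and no overlap of ages. Genes named outside this rule were chosen after their values were seen.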

Additional observations from a re-analysis of the deposited data

Results flagged for a closer look

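For 10 genes the age change in basophil-like cells differed from that in the other LK cells of the same mice by edgeR's quasi-likelihood interaction test at a Benjamini-Hochberg adjusted p under 0.05. The log2 age change in basophil-like cells minus that in the other LK cells was 0.84 for Prss34 and 0.83 for Hist1h2ap. It was -4.11 for Cd74, -3.45 for H2-Aa, -3.21 for H2-Eb1, -1.13 for H2-Ab1, -3.76 for Derl3, -1.72 for Pf4, -1.16 for Car1 and -2.56 for Rhd. In the basophil-like cells, Derl3 stood at 12.6, 0 and 1.72 CPM in mice 1, 3 and 5 and 4.71, 3.31 and 0 CPM in mice 2, 4 and 6, and Rhd at 18.04, 7.17 and 12.03 CPM and 1.88, 4.97 and 0 CPM. Pf4 stood at 94.1, 21.5 and 20.6 CPM and 22.6, 6.63 and 49.2 CPM, and H2-Eb1 at 18.04, 0 and 0 CPM and 3.77, 1.66 and 8.20 CPM. Mouse 1 is the highest for all 4. Igkc UMIs and the protease UMIs of erythroid cells also differed between the libraries, and their part in these differences was not tested.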

How the results depend on the processing

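No gene changed with age in the basophil-like cells by edgeR's quasi-likelihood test, and the count stayed at 0 without any 1 mouse (0 to 0), with DESeq2, with RLE size factors, with an Mcpt8 minimum of 5, in thinned cells, without cells of highest UMIs and without immunoglobulin genes. It was 14 with no filter on low counts, 4 with a term for mice 1 and 2 (Igkc, Ighm, Igha and Fcer1a) and 1 without these mice (Igkc). Igkc and Fcer1a are read by the rule, so that nothing is drawn from their calls, and the cause was not tested. The 20 genes named for age passed in none of 298 alternative values, and their direction was fixed by choosing genes whose ages did not overlap. The count of genes whose age change differed from the other LK cells was 10, 9 with no filter on low counts, 13 with RLE size factors and 4 to 18 without any 1 mouse. Without any 1 mouse the difference was -4.11 to 1.56 for Cd74, -3.44 to 1.72 for H2-Eb1 and -2.95 to 1.28 for Pf4, the positive values without mouse 1, and -1.54 to 0.30 for H2-Ab1, positive without mouse 2; the cause was not tested. The share of basophil-like cells kept its direction in every alternative (-5.57 to -0.54 points without any 1 mouse). The share with G2 and mitosis UMIs, -1.10 points in the main setting, was -6.90 to 7.05 points without any 1 mouse (0.553, 1.32 and 7.05 without mouse 1, 5 or 6), 2.95 points with a minimum of 1 UMI and 1.95 points at full depth. No paired analysis was possible because the young and the aged mice share no mouse number. The term for mice 1 and 2, 1 of each age, groups libraries that stood apart in these data and is no pairing of the labels. Fewer than 30 cells came from mice 3 and 6 (29 and 19), so that levels there rest on 139516 and 121933 UMIs, and a gene at 50 CPM on few molecules.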

Other observations

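Of 5385 genes, 202 were above and 287 below in the top of the 4 Mcpt8 bins in 6 of 6 mice. The genes that follow were picked from these after their values were seen, stand for no group and were given no test. Hspa5, a chaperone of the endoplasmic reticulum, went from 330 ± 75.4 CPM in the bottom bin to 845 ± 388 CPM in the top bin (SD, n = 6 mice), Hsp90b1, another, from 364 ± 89.1 to 896 ± 222 CPM, Manf from 393 ± 105 to 1019 ± 389 CPM and Sdf2l1 from 164 ± 80.9 to 484 ± 145 CPM. Tyrobp, the adaptor DAP12, went from 381 ± 74.5 to 1473 ± 603 CPM, Clec12a, an inhibitory lectin receptor, from 153 ± 71.2 to 501 ± 140 CPM and Lag3, an MHC class II receptor known from lymphocytes, from 12.6 ± 8.07 to 103 ± 48.2 CPM. Other surface receptors went the opposite way, with Cd44 at 33.7 ± 10.8 and 5.65 ± 8.80 CPM and Tnfrsf1a at 36.6 ± 16.6 and 7.65 ± 10.3 CPM. Annexin A1 (Anxa1) went from 304 ± 45.3 to 1021 ± 323 CPM, and Tmsb4x, the actin-binding thymosin beta 4, from 3907 ± 612 to 9200 ± 2662 CPM.

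The ratio of top over bottom bin was 31.1 for Syne1 (from 1.27 ± 2.13 to 39.5 ± 11.7 CPM, 61 UMIs over all bins). It was 24.5 for Alox12e (from 2.22 ± 3.48 to 54.4 ± 15.4 CPM, 87 UMIs). For Cyp4f18, which acts on leukotriene B4 in mouse, it was 17.5 (from 7.65 ± 9.25 to 134 ± 90.5 CPM, 202 UMIs). These ratios rest on few molecules in the bottom bin. They stand beside 7.26 for Fcer1a (4280 UMIs) and 3.16 for Cpa3 (8764 UMIs). Of the 6 genes of eicosanoid synthesis in this comparison, 2 were above in 6 of 6 mice, while Lta4h and Tbxas1 were below in 5 of 6, at 0.691 and 0.797 times. Among genes below in the top bin, C1qbp, a mitochondrial protein, went from 348 ± 31.7 to 156 ± 36.6 CPM, Psat1 of serine synthesis from 157 ± 19.3 to 58.1 ± 35.6 CPM, Nop2, a nucleolar RNA methyltransferase, from 35.4 ± 11.0 to 5.76 ± 6.57 CPM and Ctla2a, an inhibitor of cysteine proteases, from 178 ± 113 to 39.3 ± 32.0 CPM. Cells of the bottom bin also held more UMIs each, and the part of depth in these orders was not tested.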
